A study of Mus musculus with 8 samples.

Results

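Notch receptors, ligands and Hey targets were followed here as a set of 10 genes in single nuclei of mouse skeletal muscle. The set holds the receptors Notch1, Notch2, Notch3 and Notch4, the ligands Jag1, Jag2, Dll1 and Dll4, and the target genes Hey1 and Heyl. Members were listed by gene family and not by a cutoff on a measured value, though with earlier results of these data known. They make up 10 of the 32245 gene symbols in the 10x matrices. Raw unique molecular identifier (UMI) counts, which count each captured RNA molecule once, were taken per library and per class of nucleus. Hey2, the other Hey gene, is not in the set and is given below with 41 further genes of the pathway.

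A Notch receptor is a membrane protein that is activated by a Jagged or Delta-like ligand on a neighbouring cell. Proteolytic cleavage then releases the intracellular domain, which enters the nucleus, joins the DNA-binding protein RBPJ and a Mastermind coactivator, and switches on repressors of the Hes and Hey families. In skeletal muscle the pathway is known for keeping muscle stem cells quiescent, in arteries for endothelial identity, and in pericytes and vascular smooth muscle for the role of Notch3.

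The tissue was gastrocnemius, a calf muscle, of wild-type C57BL/6 mice. Old mice were 20 months and Young mice 3 months of age. Mice of the running experiment were 11 months old at its start. Running mice then had 2 months of treadmill exercise and Sedentary mice did not train. Each of the 4 groups had 2 libraries, replicate 1 from 10x Genomics droplets and replicate 2 from the DNBelab C droplet system (the second library set). The sex of the mice and the number of animals in a library are not given in the sources used here. The test held a term for library set, with 1 library of each set in a group. Its p-values therefore measure how far group differences disagreed between the 2 sets, and not a spread between animals or between replicates of 1 system.

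After filtering, 64803 of 65280 nuclei were retained, of which 47059 were in the 10x set. The median nucleus held 2790 UMIs (Old), 3001 (Young), 2805 (Running) and 1664 (Sedentary) of the 10x set, and between 909 and 1689.5 in the second library set. Pairs of 10x libraries shared between 30 and 46 barcodes, at most 0.390% of the smaller library. Old replicate 2 stood apart, with 2978 of its 4772 nuclei in no named class, and in the 10x set 23.6% of Sedentary nuclei stayed unnamed against 3.12% to 9.59% in the other 3 libraries. At the clustering resolution used, no muscle stem cell, mural or endothelial cluster formed in the second library set, and at a resolution of 2.0 169 of its nuclei formed an endothelial-like cluster. Levels by class therefore come from the 10x set, where each group is 1 library with no replicate, and all intervals given for them cover counting error only.

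Classes were clusters made without the 10 members and without the other pathway genes, and were named from marker genes. Muscle stem cell-like nuclei numbered 1298, mural-like nuclei (pericytes and vascular smooth muscle together) 526, endothelial-like nuclei 1443 and myonuclei, the nuclei of the muscle fibres, 26523. Every marker of the 4 classes was more than 2-fold above all other nuclei, 7 of 7 for stem cells, such as Pax7 and Chodl, 13 of 13 for mural cells, 11 of 11 for endothelium and 11 of 11 for myonuclei. Fibre RNA was found in the other classes too, and the 11 myonuclear markers summed to between 15403 and 25625 CPM in muscle stem cell-like nuclei and to between 81763 and 92235 CPM in myonuclei. They summed to 83700 CPM in an unnamed cluster of 2563 nuclei led by Cemip, 1431 from Sedentary and 854 from Running. That cluster was left out of the myonuclei for its long leading genes. CPM, the usual depth-scaled count, was computed here from the UMI total of the class in that library.

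Promoter sequences of 8 of the 10 members are held in the RefSeq table on GRCm38.p6. The 250 bases before the start site are shown for 4 genes. They are Notch3, with most of its UMIs in mural-like and muscle stem cell-like nuclei, Notch4 and Dll4, each with most of its UMIs in endothelial-like nuclei, and Hey2, a target found in arterial-like nuclei. Capitals mark matches on either strand to the RBPJ core (TGGGAA or TTCCCA) or to an ETS motif (CAGGAA or TTCCTG), the binding letters of a transcription factor family with endothelial members. Sequences run 5′ to 3′ on the strand of the gene.
Notch3, chr17:32166891-32167140, minus strand: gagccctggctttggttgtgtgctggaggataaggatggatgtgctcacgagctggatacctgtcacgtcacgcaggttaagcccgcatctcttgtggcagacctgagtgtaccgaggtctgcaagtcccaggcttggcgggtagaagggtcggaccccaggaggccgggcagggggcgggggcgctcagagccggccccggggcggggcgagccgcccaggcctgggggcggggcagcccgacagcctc
Notch4, chr17:34564045-34564294, plus strand: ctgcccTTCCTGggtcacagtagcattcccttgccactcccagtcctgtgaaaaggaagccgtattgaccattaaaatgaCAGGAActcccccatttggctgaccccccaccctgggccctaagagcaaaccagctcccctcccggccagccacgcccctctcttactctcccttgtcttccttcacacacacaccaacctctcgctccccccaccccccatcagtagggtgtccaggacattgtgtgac
Dll4, chr2:119325534-119325783, plus strand: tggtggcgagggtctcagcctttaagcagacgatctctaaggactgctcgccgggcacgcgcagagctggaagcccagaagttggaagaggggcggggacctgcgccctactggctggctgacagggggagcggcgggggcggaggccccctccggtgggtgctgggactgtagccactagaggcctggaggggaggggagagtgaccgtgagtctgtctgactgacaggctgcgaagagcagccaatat
Hey2, chr10:30842784-30843033, minus strand: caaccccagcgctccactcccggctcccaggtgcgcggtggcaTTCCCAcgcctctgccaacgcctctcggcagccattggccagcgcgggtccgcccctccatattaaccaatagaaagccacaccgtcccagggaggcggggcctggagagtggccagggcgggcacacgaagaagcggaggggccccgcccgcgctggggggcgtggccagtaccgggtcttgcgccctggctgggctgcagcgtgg
The Notch4 window held 2 ETS matches, 244 and 170 bases before the start, and the Hey2 window held 1 RBPJ core, 207 bases before it. Of all 32851 promoter windows of this length, 21.6% held the RBPJ core and 25.7% the ETS motif. The 8 members' windows held no RBPJ core, and among them only Notch1 (88 bases before the start) and Notch4 held the ETS motif. A match describes these letters and not a bound site.

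**Figure D1:**
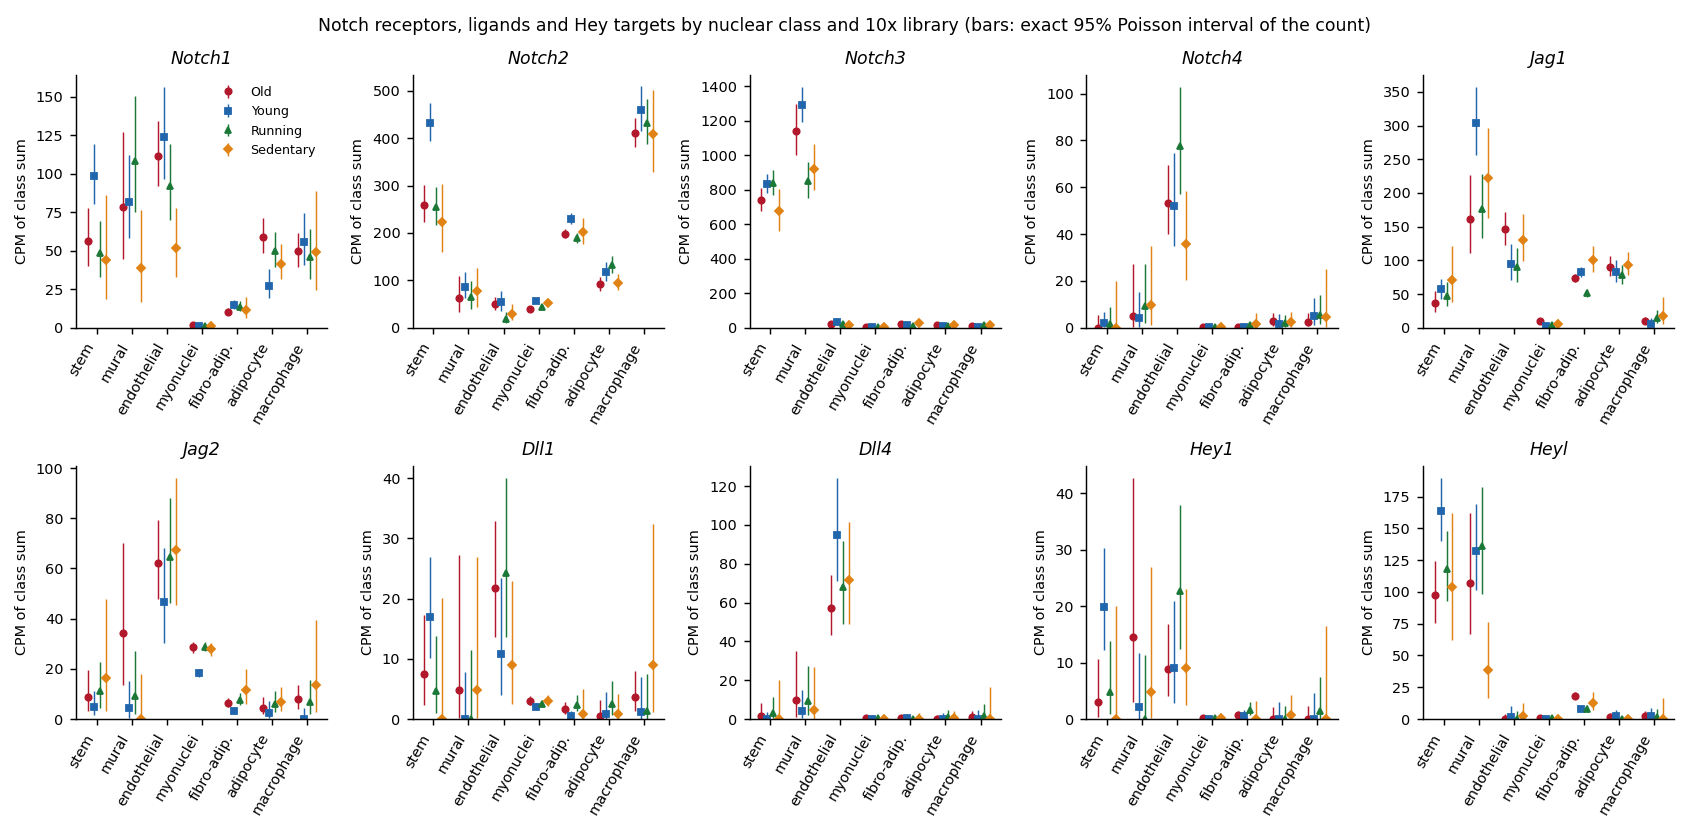
Level of each of the 10 members (y axis, CPM of the class sum) in 7 nuclear classes (x axis) of the 4 10x libraries. Points are libraries and bars exact 95% Poisson intervals of the count. Notch3 stands high in stem and mural nuclei, and Notch4 and Dll4 in endothelial nuclei, in all 4 libraries.

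Notch3 (chr17:32120820-32166852, minus strand), a receptor known from vascular smooth muscle, had most of its UMIs in 2 classes. In mural-like nuclei its level was 1141 CPM (Old), 1292 (Young), 853 (Running) and 923 (Sedentary). In muscle stem cell-like nuclei it was 742, 833, 841 and 676 CPM in the same order. These ranges nearly met, at 853 and 841 CPM in Running, and the thinned shares below overlap, so the 2 classes are not clearly separated. The other 5 classes plotted were far lower. Endothelial-like nuclei lay at 15.7 to 30.5 CPM, fibro-adipogenic nuclei at 11.5 to 30.2 CPM and myonuclei at 1.99 to 4.35 CPM. Of the 4516 Notch3 UMIs in the 10x set, 45.2% were in muscle stem cell-like and 29.2% in mural-like nuclei. A Notch3 UMI was found in 50% to 69.9% of muscle stem cell-like nuclei and in 59.3% to 92.2% of mural-like nuclei, against 0.698% to 1.70% of myonuclei. Myonuclei were the deeper class, with medians of 2200 to 3756 UMIs against 954 to 1752 in muscle stem cell-like nuclei. With every nucleus thinned to 500 UMIs, the shares were 31.8% to 37.9% in muscle stem cell-like, 33.8% to 44.6% in mural-like and 0.107% to 0.289% in myonuclei.

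Notch4 (chr17:34564268-34588503, plus strand), the receptor known as endothelial, had few UMIs, 244 in the 10x set, and 60.2% of them were in endothelial-like nuclei. Its endothelial level was 53.3 CPM (Old), 52.0 (Young), 77.7 (Running) and 35.9 (Sedentary). Mural-like nuclei came next with 4.19 to 9.66 CPM, and the ranges of these classes did not overlap. In lymphatic endothelial-like nuclei, a related cell type, Notch4 had 2 UMIs in 380 nuclei.

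Notch1 (chr2:26457903-26516663, minus strand), the receptor known from endothelium and stem cells alike, was spread more widely. Endothelial-like nuclei held 111 CPM (Old), 124 (Young), 92.2 (Running) and 51.6 (Sedentary). Mural-like, muscle stem cell-like, macrophage-like and adipocyte-like nuclei overlapped with that range, each with the next in order, and myonuclei stood below all of them at 0.992 to 1.46 CPM. The highest pooled level was in lymphatic endothelial-like nuclei, with 165 UMIs and 186 CPM.

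Notch2 (chr3:98013527-98150361, plus strand) a receptor found across many tissues, had 13697 UMIs. Its levels were highest in macrophage-like nuclei (409 to 460 CPM) and overlapped there with muscle stem cell-like nuclei, at 260 CPM (Old), 433 (Young), 255 (Running) and 224 (Sedentary). Fibro-adipogenic nuclei, the connective tissue progenitors, ranged from 190 to 229 CPM and held 32.3% of its UMIs. Myonuclei ranged from 38.8 to 56.9 CPM and held 33.9%. Endothelial-like nuclei, at 19.4 to 53.8 CPM, overlapped with the myonuclear range.

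**Figure D2:**
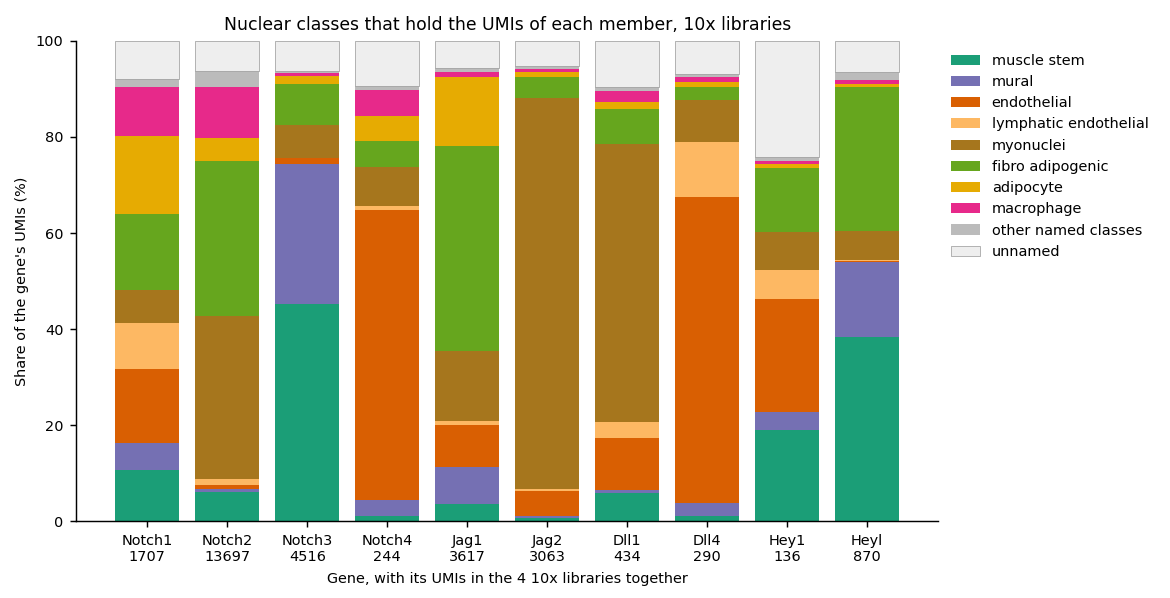
Share of each member's UMIs (y axis, percent) in each nuclear class, for the 4 10x libraries together, with the number of UMIs under each gene (x axis). Endothelial nuclei hold most of Notch4 (60.2%) and Dll4 (63.8%), and myonuclei most of Jag2 (81.5%).

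Among the ligands, Dll4 (chr2:119325784-119335962, plus strand), which endothelial cells are known to present, was, like Notch4, mostly endothelial. It stood at 57.2 CPM (Old), 94.97 (Young), 68.0 (Running) and 71.8 (Sedentary) in endothelial-like nuclei, with 63.8% of its 290 UMIs there. Mural-like nuclei were at 4.19 to 9.75 CPM, with no overlap. Lymphatic endothelial-like nuclei held 33 UMIs (37.2 CPM pooled), of which none were in Sedentary.

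Jag1 (chr2:137081456-137116644, minus strand), a ligand known in vessel walls, was highest in mural-like nuclei, at 161 CPM (Old), 304 (Young), 176 (Running) and 222 (Sedentary). Endothelial-like nuclei followed at 146, 94.97, 90.6 and 130 CPM, below every mural value. Adipocyte-like (78.2 to 93.7 CPM) and fibro-adipogenic nuclei (51.2 to 100.4 CPM) overlapped with the endothelial range, and the fibro-adipogenic class held 42.7% of all Jag1 UMIs. Muscle stem cell-like nuclei lay at 37.1 to 70.9 CPM and myonuclei at 2.18 to 10.5 CPM.

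Jag2 (chr12:112907819-112929776, minus strand), the other Jagged ligand, had most of its UMIs in myonuclei, 2496 of 3063. Its level there was 28.6 CPM (Old), 18.2 (Young), 28.9 (Running) and 27.8 (Sedentary), and Young was the low library. Endothelial-like nuclei were higher on the CPM scale, at 62.1, 46.6, 64.7 and 67.3 CPM, with no overlap. In mural-like nuclei Jag2 had between 0 and 7 UMIs a library. A Jag2 UMI was found in 6.17% to 10.9% of myonuclei, and after thinning to 500 UMIs in 0.886% to 1.56%, against 0% to 2.07% of muscle stem cell-like nuclei, so the share of nuclei does not separate those classes as the CPM does.

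Dll1 (chr17:15367354-15376872, minus strand), the Delta-like ligand known from muscle progenitors, was sparse, with 434 UMIs. Myonuclei held 57.8% of them at only 2.07 to 3.06 CPM. In endothelial-like nuclei it was at 21.7 CPM (Old), 10.8 (Young), 24.3 (Running) and 8.98 (Sedentary), from between 4 and 22 UMIs a library, and at 17.8 CPM pooled beside 16.9 in lymphatic endothelial-like nuclei. In Young it was lower there than in muscle stem cell-like (17.01 CPM) and lymphatic endothelial-like nuclei (24.1 CPM). In muscle stem cell-like nuclei Dll1 had 5 UMIs (Old), 18 (Young), 3 (Running) and 0 (Sedentary), where 3 counts would be 16.4 CPM, so that library cannot show a level below this.

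Of the targets, Heyl (chr4:123233556-123249875, plus strand) was highest in the same 2 classes as Notch3. It was at 97.9 CPM (Old), 164 (Young), 118 (Running) and 104 (Sedentary) in muscle stem cell-like nuclei, and at 107, 132, 136 and 38.6 CPM in mural-like nuclei, of which Sedentary, with 8 UMIs, was the low library. The ranges of these classes overlapped. Endothelial-like nuclei, with 2 Heyl UMIs in all, were at 0.759 CPM, and fibro-adipogenic nuclei at 7.88 to 18.3 CPM held 29.9% of the UMIs. Hey1 (chr3:8663359-8667256, minus strand), the other Hey gene of the set, had 136 UMIs in the 10x set, of which 33 were in unnamed nuclei. Endothelial-like nuclei held 32 of the 136, at 8.88 CPM (Old), 8.96 (Young), 22.6 (Running) and 8.98 (Sedentary). Muscle stem cell-like nuclei held 26, of which 21 were in Young.

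The endothelial-like and mural-like classes were divided into subclusters, again without the Notch genes, to ask where along the vessel the members lay. Arterial-like nuclei numbered 266 (9 of 9 markers such as Sox17 and Gja5 above 2-fold in the larger of their subclusters), capillary-like 464 and venous-like 110, and 603 endothelial-like nuclei stayed unnamed, among them 145 with a median of 3784 UMIs whose leading genes included the fibre genes Ttn and Neb. Haemoglobin genes led the capillary-like subcluster beside Aqp1. Pericyte-like nuclei numbered 180 and smooth muscle-like nuclei 36, and 310 mural-like nuclei stayed unnamed.

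Jag1 separated arterial-like from capillary-like nuclei. Arterial-like nuclei held 210 of its UMIs at a pooled 407 CPM (exact 95% interval 353 to 465), capillary-like nuclei 29 at 40.1 CPM (26.9 to 57.6) and venous-like nuclei 24 at 95.4 CPM (61.1 to 142). The arterial value was 424 CPM (Old), 343 (Young), 322 (Running) and 567 (Sedentary), and the capillary value 36.4, 20.8, 65.1 and 59.9 CPM, with no overlap. Dll4 was shared by arterial-like (47 UMIs, 91.0 CPM) and capillary-like nuclei (78 UMIs, 108 CPM). It had 0 UMIs in venous-like nuclei, where 3 counts would be 11.9 CPM. Dll1 had the reverse order, with 17 UMIs (67.6 CPM, 39.4 to 108) in venous-like nuclei against 17.4 CPM in arterial-like and 15.2 CPM in capillary-like nuclei. Notch4 was at 98.8 CPM in arterial-like, 67.8 in capillary-like and 19.9 in venous-like nuclei, and Notch1 at 176, 95.4 and 107 CPM.

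Hey1 had 18 UMIs in arterial-like nuclei (34.9 CPM, 20.7 to 55.1), 8 in capillary-like and 0 in venous-like nuclei. Hey2, the target known for arterial endothelium, had 54 UMIs in arterial-like nuclei (105 CPM) and 0 in both other named endothelial subclasses, where 3 counts would be 4.15 CPM (capillary-like) and 11.9 CPM (venous-like). Of those 54 UMIs, 42 came from Old and 10 from Young, with 1 each from Running and Sedentary. Old also held 73 of the 99 nuclei of 1 arterial-like subcluster, led by Cytl1, Mgp and, among its 10 leading genes, Hey2. In that smaller subcluster 5 of the 9 arterial markers passed 2-fold.

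In the mural-like class, Notch3 stood at 1541 CPM in pericyte-like nuclei (1415 to 1674) and at 1813 CPM in smooth muscle-like nuclei (1546 to 2112), so the intervals overlapped. Jag1 was at 347 (289 to 413) and 365 CPM (251 to 512), also with overlap. Heyl was at 176 CPM in pericyte-like nuclei, from 64 UMIs (136 to 225), and at 33.2 CPM in smooth muscle-like nuclei, from 3 UMIs in 36 nuclei. All 36 smooth muscle-like nuclei and 88.9% of pericyte-like nuclei held a Notch3 UMI.

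**Figure D3:**
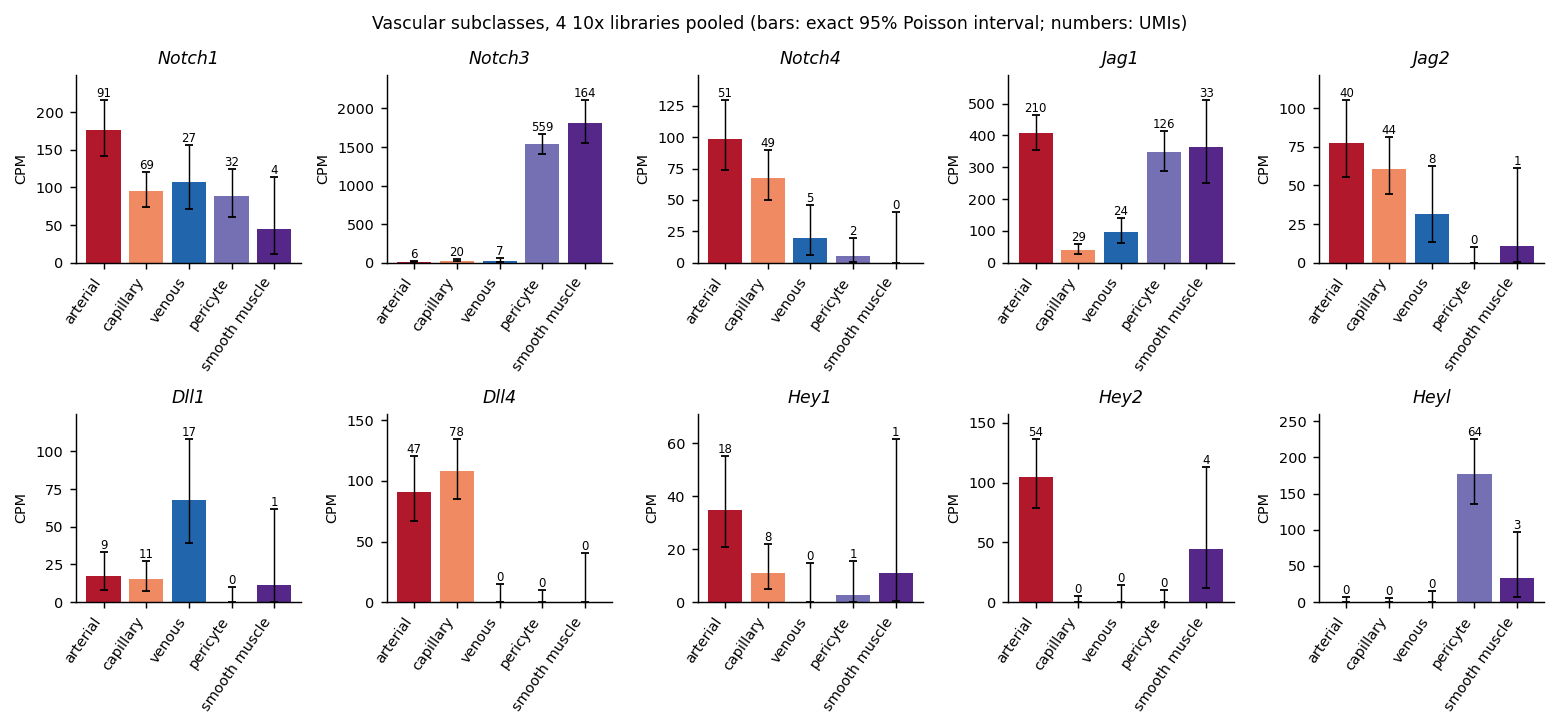
Level (y axis, CPM) of 9 members and Hey2 in the 5 vascular subclasses (x axis), with the 4 10x libraries pooled. Columns are pooled levels, vertical lines exact 95% Poisson intervals and numbers UMIs. Jag1 and Hey2 stand highest in the arterial subclass among endothelial nuclei, Dll1 in the venous and Heyl in the pericyte subclass.

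Old and Young nuclei were compared within a class as 1 library against 1 library, which has no replicate and no test. A ratio was called past 2-fold in genes with at least 20 UMIs in the 2 libraries together, and each ratio has an exact 95% interval for counting error. In whole-library sums, fewer nuclei of a type and less RNA per nucleus cannot be told apart, and the class sums used here remove the first of these only as far as the classes hold.

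In muscle stem cell-like nuclei (321 in Old, 512 in Young) the receptors and targets were lower in the Old library. The ratio of Old to Young was 0.573 for Notch1 (0.385 to 0.839), 0.600 for Notch2 (0.501 to 0.715) and 0.891 for Notch3 (0.796 to 0.995). Heyl was at 0.599 (0.444 to 0.799) and Hey1, with 2 UMIs against 21, at 0.149 (0.0170 to 0.611). Dll1, with 5 against 18 UMIs, was at 0.436 (0.127 to 1.22) and Jag1 at 0.654 (0.393 to 1.06), both with intervals that include equality. All 7 members with enough UMIs lay below 1, with a median log2 ratio of -0.74 beside -0.01 for all genes in the class, and 2 of 7 (Hey1 and Dll1) were past 2-fold lower, while 4.75% of all 9202 genes were. Without the 6% of nuclei that Scrublet, a doublet caller, scored highest, Dll1 was at 0.515 and only Hey1 (0.159) was past 2-fold. The myonuclear markers moved too, at 22153 CPM in Old against 15403 CPM in Young muscle stem cell-like nuclei, and their part in these ratios was not tested.

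In mural-like nuclei (87 in Old, 166 in Young) Jag1 was at 0.529 (0.351 to 0.776), from 33 against 145 UMIs, and Notch3 at 0.883 (0.756 to 1.03). None of the 5 members with enough UMIs was past 2-fold, against 13% of 5658 genes. Jag1 was at 0.469 with TMM scaling (edgeR's library scaling) and at 0.459 without the highest-scoring 6% of nuclei, past 2-fold lower in both. Pericyte-like nuclei made up 32.2% of the mural-like class in Old and 71.7% in Young. Within pericyte-like nuclei alone Jag1 was at 0.570 (0.276 to 1.06), and within unnamed mural-like nuclei at 0.701 (0.328 to 1.40). The endothelial markers summed to 1297 CPM in Old and 394 CPM in Young mural-like nuclei, and their part was not tested.

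In endothelial-like nuclei (523 in Old, 228 in Young) Jag1 went the other way, at 1.54 (1.12 to 2.15), while Dll4 was at 0.602 (0.408 to 0.891). Dll1, with 22 against 6 UMIs, was the only member of 8 past 2-fold, at 2.02 (0.794 to 6.08), and 10.1% of 8961 genes were as much higher. With TMM scaling of the class sums it was at 1.94 and no member was past 2-fold. Notch1 (0.901), Notch2 (0.917) and Notch4 (1.02) were near 1 with intervals on both sides of it. Arterial-like nuclei made up 25.6% of the class in Old and 16.7% in Young, and within them Jag1 was at 1.23 (0.847 to 1.83) and Dll4 at 0.507 (0.241 to 1.08). Dll4 was at 0.667 (0.369 to 1.18) within capillary-like nuclei, 30.8% of the class in Old and 61.4% in Young, and at 1.03 (0.393 to 3.18) within unnamed endothelial-like nuclei, 36.3% and 14.04%. The 8 fibro-adipogenic markers summed to 1416 CPM in Old and 670 CPM in Young endothelial-like nuclei, and their part in the Jag1 ratio was not tested.

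In myonuclei (5535 in Old, 7453 in Young) 3 of 7 members were past 2-fold higher, while 20.4% of 16012 genes were and the median log2 ratio of all genes was 0.29. Jag1 had the largest ratio of the 3, 4.82 (3.604 to 6.53), from 244 against 58 UMIs, beside Notch3 at 2.18 (1.55 to 3.10) and Heyl at 2.18 (0.962 to 5.24). With TMM scaling Jag1 was at 3.995, Notch3 at 1.81 and Heyl at 1.80, so that only Jag1 was past 2-fold. Jag2 was at 1.57 (1.40 to 1.77) and Notch2 at 0.682 (0.628 to 0.742). The 8 fibro-adipogenic markers, of a class that holds much Jag1 and Heyl RNA, summed to 494 CPM in Old myonuclei against 202 (Young), 216 (Running) and 162 CPM (Sedentary), and their part in the Jag1 and Heyl ratios was not tested.

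In fibro-adipogenic nuclei 2 of 6 members were past 2-fold higher, beside 10.9% of 14909 genes. Heyl had 146 UMIs in Old and 52 in Young, a ratio of 2.33 (1.68 to 3.26), and Jag2 had 52 and 21, a ratio of 2.05 (1.21 to 3.58). The 11 myonuclear markers summed to 14534 CPM in Old and 10657 CPM in Young fibro-adipogenic nuclei. Of the 131 Jag2 UMIs of the class, 65 were in a fibro-adipogenic cluster led by Sult5a1, in which those markers summed to 48670 CPM. The part of fibre RNA in the Jag2 ratio was not tested. Fibro-adipogenic clusters differed in level over the 10x set. Heyl was at 19.3 CPM in the cluster led by Grm8 and 3.96 in the cluster led by Dpp4. Jag1 was at 59.7 and 133 CPM and Notch3 at 21.1 and 10.5 CPM in the same order. The part of the mix of these clusters in the ratios was not tested.

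Running and Sedentary nuclei were compared in the same way. The Sedentary library was the shallowest of the 10x set, and its muscle stem cell-like class held 146 nuclei against 319 in Running. Notch3 in muscle stem cell-like nuclei was at 1.24 (1.02 to 1.52), and Notch1 (1.12), Notch2 (1.14) and Heyl (1.14) had intervals that include 1. None of 5 members was past 2-fold there, against 16.5% of 6583 genes.

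In mural-like nuclei 2 of 5 members were past 2-fold higher in Running, beside 9.28% of 4763 genes. These were Notch1, with 35 against 8 UMIs at 2.80 (1.27 to 6.98), and Heyl, with 44 against 8 UMIs at 3.52 (1.64 to 8.65). Notch3 was at 0.924 (0.766 to 1.12). Only 5.71% of Sedentary mural-like nuclei were pericyte-like against 18.8% in Running, and within unnamed mural-like nuclei Notch1 was at 3.13 (1.27 to 9.26) and Heyl at 2.78 (1.25 to 6.98).

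In endothelial-like nuclei Notch4 was past 2-fold higher in Running, at 2.16 (1.21 to 4.08), the only 1 of 6 members, beside 9.86% of 7495 genes. Notch1 was at 1.79 (1.08 to 3.04), Jag1 at 0.696 (0.473 to 1.02) and Dll4 at 0.946 (0.583 to 1.55). Within arterial-like nuclei Notch4 was at 3.75 (1.27 to 15.03) and within unnamed endothelial-like nuclei at 1.74 (0.667 to 4.83). Notch1 was at 0.550 (0.216 to 1.36) within arterial-like and at 4.12 (1.75 to 11.2) within unnamed nuclei. Dll4 was at 0.334 (0.136 to 0.809) within capillary-like and at 1.68 (0.821 to 3.55) within unnamed nuclei. Unnamed nuclei made up 44.1% of the endothelial-like class in Running and 65.99% in Sedentary, and capillary-like nuclei 32.2% and 14.99%. In myonuclei none of 7 members was past 2-fold, against 18.5% of 16408 genes, and Notch2 was at 0.863 (0.792 to 0.942), Notch3 at 0.688 (0.494 to 0.961) and Jag1 at 0.745 (0.567 to 0.983). In fibro-adipogenic nuclei Notch3 was at 0.381 (0.248 to 0.593), past 2-fold lower as were 3.85% of 13602 genes, and Jag1 at 0.509 (0.409 to 0.638). The part of the mix of fibro-adipogenic clusters in these ratios was not tested.

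**Figure D4:**
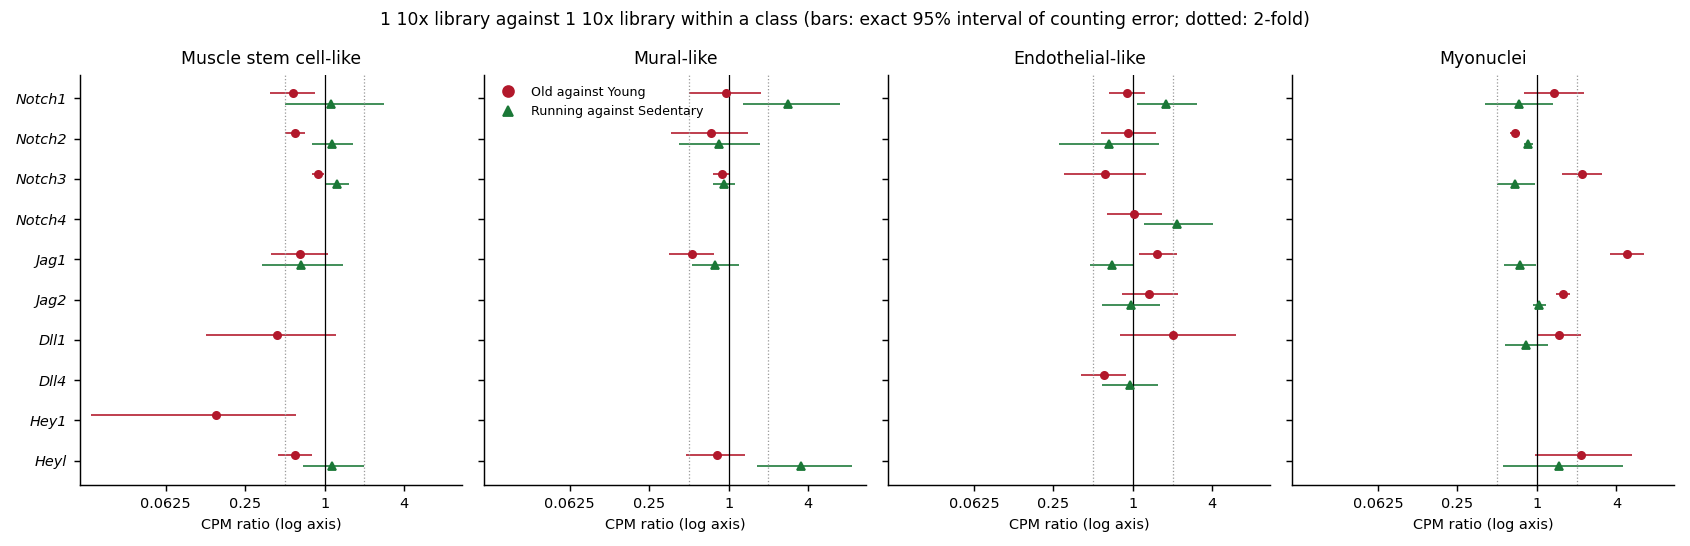
Ratio of CPM (x axis, log scale) of each member (y axis) within 4 classes, Old against Young (circles) and Running against Sedentary (triangles), 1 10x library each, for members with at least 20 UMIs in the pair. Bars are exact 95% intervals of counting error, and dotted lines mark 2-fold. Stem circles lie left of 1, and Jag1 in myonuclei lies at 4.82.

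Differences between groups were tested in the sums of all nuclei and of myonuclei, with edgeR's quasi-likelihood test over 8 libraries and Benjamini-Hochberg adjustment over all genes. All 10 members were tested in each. No member and no gene of the whole table was called (0% of 20312 genes in all nuclei and 0% of 18664 genes in myonuclei). With the spread estimated from these libraries, the test recovered 0% of simulated 2-fold changes for Old against Young. The absence of a call therefore does not show equal levels. At an unadjusted p under 0.05 there were 556 genes in all nuclei and 701 in myonuclei for Old against Young, and 98 and 182 for Running against Sedentary. DESeq2 called 5 genes for Old against Young in myonuclei and 0 in the other 3 comparisons, none of them a member. In all nuclei the members' log2 fold changes lay between -0.42 and 0.74 for Old against Young and between -0.08 and 1.02 for Running against Sedentary.

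Jag1 in myonuclei had the smallest p of the members. Its level was 10.5 CPM (Old), 2.18 (Young), 4.26 (Running) and 5.71 (Sedentary) of the 10x set, and 13.5, 4.38, 8.78 and 5.26 CPM in the second library set. Old was the highest of the 4 libraries in each set. The log2 fold change of Old against Young was 1.73 (SE 0.50, edgeR p 0.0088, adjusted p 0.89), so it did not pass. Notch2 in myonuclei was at 56.9 CPM in Young and 38.8 in Old of the 10x set and at 39.8 and 33.1 CPM in the second set, with a log2 difference of -0.65 (SE 0.28, adjusted p from edgeR 0.89), and did not pass either. Jag2 was higher in Old than in Young of the 10x set and lower in the second (8.59 against 16.96 CPM). The Old value of the second set rests on 1547 myonuclei of the library that stands apart, with 22 Jag1 UMIs.

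Fibro-adipogenic nuclei were also found in the second library set, 13 (Old), 85 (Young), 94 (Running) and 85 (Sedentary), and their sums over 8 libraries were tested after the data had been seen. Jag1, Jag2, Notch2, Notch3 and Heyl had enough counts, and edgeR called none of these 5 in either comparison. Of 9711 genes it called 22 (0.227%) for Old against Young, and in the running experiment it called 4 (0.0412%), with 260 and 217 genes at an unadjusted p under 0.05, and DESeq2 called 1 and 0. For Old against Young the log2 difference was 0.97 for Heyl (SE 0.81) and 1.13 for Jag2 (SE 1.03), and for Running against Sedentary it was -0.65 for Notch3 (SE 0.50) and -0.78 for Jag1 (SE 0.55), all with an adjusted p of 1 from edgeR. Without Old replicate 2, 32 and 18 genes of 13425 were called and again no member. Notch3 of the second set stood at 223 CPM (Young), 236 (Running) and 215 (Sedentary) in these nuclei and had 0 UMIs in Old, against 11.5 to 30.2 CPM in the 10x set. Notch2 was lower there, at 80.4, 105 and 75.2 CPM in the same order, against 190 to 229 CPM in the 10x set. No stem or mural cluster formed in the second set, and the part of such nuclei in these levels and fold changes was not tested. The Old sum of the second set held only 13215 UMIs, beside 7971142 in the 10x set.

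Myonuclei of the second library set also held more Notch3 and Notch4 on the CPM scale than those of the 10x set. Notch3 was at 37.4 CPM (Old), 17.8 (Young), 12.7 (Running) and 12.1 (Sedentary) there, against 1.99 to 4.35 CPM in the 10x set, and Notch4 at 0.915 to 6.14 CPM against 0.129 to 0.338 CPM. No stem or vascular cluster was separated in that set, so nuclei or RNA of those classes cannot be told apart from expression in the fibre.

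**Figure D5:**
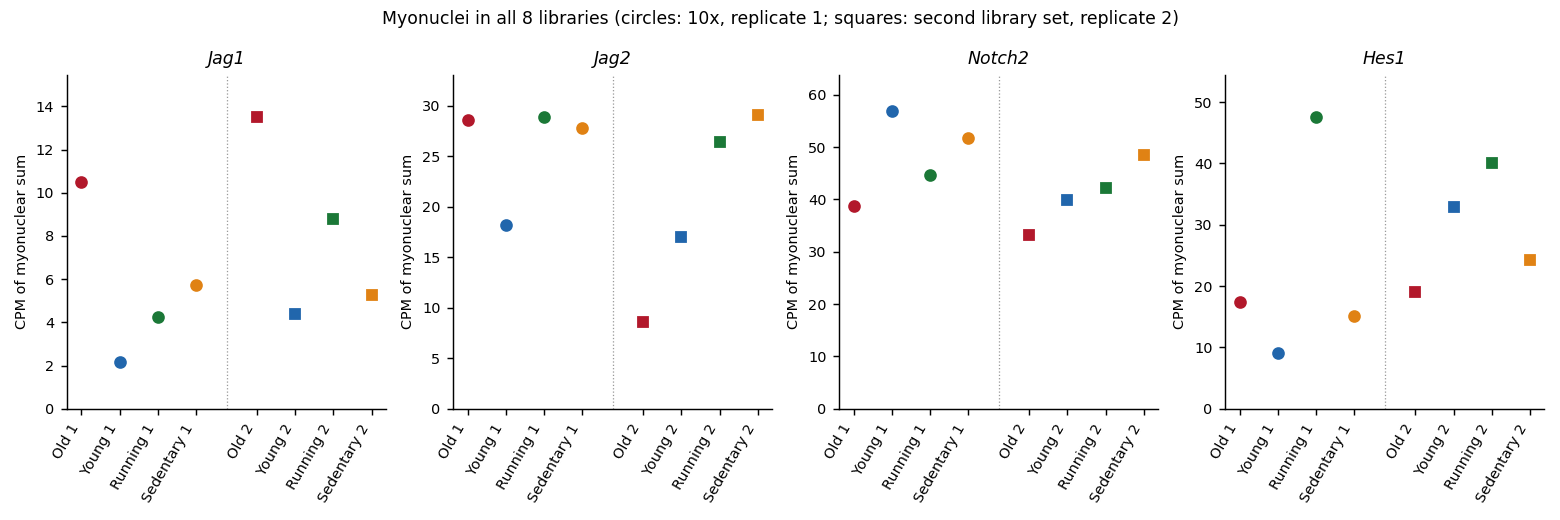
Level in myonuclei (y axis, CPM of the myonuclear sum) of Jag1, Jag2, Notch2 and the pathway gene Hes1 in the 8 libraries (x axis), circles for the 10x set and squares for the second library set. For Jag1 the Old library is the highest in both sets, at 10.5 and 13.5 CPM.

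The 42 other genes of the pathway list were spread over 12 classes by their highest pooled level, and no class led for more than 5 of them. No minimum count was set for this, so small classes can lead from few UMIs. For Hes5 the highest level was in B cell nuclei, from 1 UMI (2.77 CPM), beside 6 UMIs in myonuclei. Rbpj, the DNA-binding partner of cleaved Notch, was at 6136 CPM in macrophage-like nuclei, against 132 CPM in myonuclei, 135 in mural-like, 160 in endothelial-like and 201 in muscle stem cell-like nuclei. Maml3, a Mastermind coactivator, was highest in mural-like nuclei (1091 CPM), and Dtx4, a Deltex ubiquitin ligase, in muscle stem cell-like nuclei (353 CPM). Nrarp, a feedback inhibitor that Notch induces, was at 19.0 CPM in endothelial-like and 16.5 CPM in mural-like nuclei and at 0.154 CPM in myonuclei.

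In Old against Young, 0 of 29 pathway genes were past 2-fold in muscle stem cell-like nuclei (12.6% of all genes were) and 0 of 21 in mural-like nuclei (13% of all genes). In endothelial-like nuclei 3 of 30 were higher, against 10.1% of all genes. They were Hey2 at 2.42 (1.20 to 5.40) and the gamma-secretase genes Psen2 at 2.20 (0.877 to 6.58) and Aph1a at 2.08 (0.977 to 4.93). In the same nuclei 1 was lower (3.06% of all genes were), Nrarp with 7 against 18 UMIs at 0.214 (0.0756 to 0.537). In myonuclei 5 of 33 were higher, against 20.4% of all genes, and none was lower. They were the Mastermind genes Maml2 at 2.39 (2.23 to 2.56) and Maml3 at 2.16 (2.02 to 2.31), the fringe glycosyltransferase Lfng at 3.63 (1.39 to 11.1), and the gamma-secretase genes Aph1b at 4.01 (2.47 to 6.76) and Aph1c at 2.18 (1.62 to 2.94). In fibro-adipogenic nuclei 2 of 35 were lower, against 3.26% of all genes, Dner at 0.489 (0.314 to 0.750) and Neurl1b at 0.467 (0.264 to 0.808).

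In Running against Sedentary, 5 of 26 pathway genes were higher in endothelial-like nuclei, against 9.86% of all genes. They were Nrarp at 2.88 (1.05 to 9.83), Hes1, a target repressor, at 2.38 (1.26 to 4.83), Psen2 at 4.87 (1.70 to 19.1), the Deltex gene Dtx3 at 2.74 (0.989 to 9.39) and the coactivator gene Snw1 at 2.29 (1.14 to 5.01). Aph1a was lower there, at 0.499 (0.188 to 1.26), as were 3.59% of all genes. In mural-like nuclei 2 of 19 were higher, Dtx3 at 2.56 (1.59 to 4.29) and Neurl1b, a ubiquitin ligase for Notch ligands, at 2.30 (0.824 to 7.93), beside 9.28% of all genes. In myonuclei 3 of 32 were past 2-fold, beside 18.5% of all genes, with Hes1 at 3.14 (2.74 to 3.61) and Dtx4 at 3.17 (1.41 to 8.35) higher and Maml3 at 0.448 (0.424 to 0.473) lower. In muscle stem cell-like nuclei 2 of 21 were, beside 16.5% of all genes. Hes1 had 40 UMIs against 0, where 3 counts in Sedentary would be 16.4 CPM, and the O-fucosyltransferase Pofut1 was lower, at 0.475 (0.265 to 0.874). In fibro-adipogenic nuclei 3 of 34 were, beside 16.4% of all genes, Dner at 0.443 (0.245 to 0.835), Aph1c at 2.64 (0.842 to 13.3) and Dlk1, with 20 UMIs against 1, at 3.86 (0.618 to 160.1).

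Hes1 was the pathway gene nearest to a call over the 8 libraries in that comparison. In myonuclei it stood at 47.6 CPM in Running and 15.1 in Sedentary of the 10x set and at 40.0 and 24.2 CPM in the second set. Running was the highest of the 4 libraries in each set. The log2 fold change was 1.23 (SE 0.49, edgeR p 0.035, adjusted p 1) in myonuclei and 1.13 (SE 0.47, edgeR p 0.045, adjusted p 1) in all nuclei, and neither passed. Of the other pathway genes, 39 in all nuclei and 35 in myonuclei were tested with Hes1 included, and none was called in either comparison.

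The genes most like 4 of the members were found by Pearson's r of log2(CPM + 1) over 41 points, each a class in a 10x library, among 9723 genes that reach 50 CPM. The points share libraries, depth and the clustering, so r is a description. Notch3 was most like Iqsec3 (0.90), Nedd4l (0.83) and 4933431K23Rik (0.82). For Notch4 these were Cd300lg (0.84), Sox17 (0.83) and Adgrg1 (0.83), of which Cd300lg and Sox17 are among the markers that named endothelial subclasses. Jag1 was most like Cdc42ep4 (0.84), Gm14211 (0.84) and Spaca6 (0.81), and Notch1 like Rassf3 (0.83), Acsf2 (0.76) and Hnrnpab (0.74).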

How the data were processed

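Single nuclei of gastrocnemius were sequenced in 8 libraries, 4 from 10x Genomics and 4 from DNBelab C, and mapped to mm10 (Cell Ranger 6.1.2 for the 10x libraries and PISA for the second library set, Seurat 4.1.1 downstream). The files the authors deposited hold UMI counts, not normalized, for every gene in every nucleus. Whether intronic reads were counted is not given in the sources used here.

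From these, nuclei were kept if they had over 200 but fewer than 6000 detected genes and a mitochondrial share below 6%. Each library set was clustered (scanpy 1.11.5, leidenalg 0.10.2, 2000 variable genes, 30 components, 20 neighbours, resolution 1.0) without the 10 members and the 42 pathway genes. Clusters were named from at least 3 markers more than 2-fold above the rest, with a mean log2 ratio of the class's markers of at least 1. Clusters short of this were named myonuclei where the myonuclear markers summed to at least 50000 CPM, which is how the plain myonuclear clusters got their name. Clusters stayed unnamed where markers of several classes stood out. They also did where the leading genes held no marker of the class and had a median length over 300 kb. No doublet was removed in the main values. Sums leave out mitochondrial genes and those of ribosomal proteins. Sums of the 8 libraries (21100 shared symbols) (all nuclei, myonuclei and, added after seeing the data, fibro-adipogenic nuclei) were tested with edgeR 4.0.16 (quasi-likelihood, TMM, filterByExpr, group plus library set, Benjamini-Hochberg 0.05), beside DESeq2 1.42.0. Within the 10x set ratios have exact conditional intervals and no test. Counts were simulated from the 8 libraries with the dispersion (spread between libraries) estimated from them. Of 4-fold changes, 3.5% in all nuclei and 25.5% in myonuclei were recovered (Old against Young, 20104 and 17780 genes). Of 2-fold changes, 0% were recovered in both sums. At a set dispersion of 0.05 the shares were 84.5% and 83% at 4-fold, and 1.5% and 0% at 2-fold. Levels of different genes were not compared.

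All members were named, and pathway genes where they passed the test or 2-fold in muscle stem cell-like, mural-like, endothelial-like, fibro-adipogenic nuclei or myonuclei. The class levels of Rbpj, Maml3, Dtx4, Nrarp, Dtx1 and Maml2 were chosen after their values were seen. For Notch1, Notch3, Notch4 and Jag1 the 3 genes of highest likeness were named. The members, lists and tests were chosen with earlier results of these data known, and the naming limits were chosen once clusters were known. Replicate numbers follow the order of deposition and pair no libraries. Promoters came from RefSeq (GRCm38.p6) and gene positions from GENCODE on GRCm38, the assembly that mm10 names. These sources can place a start site differently. For Notch1 the RefSeq window before the start, chr2:26503823-26504072, lies inside the GENCODE gene.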

Additional observations from a re-analysis of the deposited data

Results flagged for a closer look

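Several members had Old to Young ratios on opposite sides of 1 in different classes of the 10x set, with intervals of counting error that leave out 1. Each group is 1 library, so the differences between classes were not tested. Jag1 was at 0.529 in mural-like nuclei, 1.54 in endothelial-like nuclei and 4.82 in myonuclei. Notch3 was at 0.891 in muscle stem cell-like nuclei, 1.51 in fibro-adipogenic nuclei and 2.18 in myonuclei. Heyl was at 0.599 in muscle stem cell-like and 2.33 in fibro-adipogenic nuclei. Notch1 was at 0.573 in muscle stem cell-like, 0.676 in fibro-adipogenic and 2.16 in adipocyte-like nuclei.

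In Running against Sedentary, also untested between classes, Notch2 was at 0.863 in myonuclei and 1.39 in adipocyte-like nuclei. Notch3 was at 0.381 in fibro-adipogenic nuclei, 0.688 in myonuclei and 1.24 in muscle stem cell-like nuclei.

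An unnamed 10x cluster of 60 nuclei, 57 from Old and 3 from Sedentary, was led by Itprid1, Csn3 and Fcgbp. It held 29 Notch1 UMIs (189 CPM) and 11 Hey1 UMIs (71.6 CPM), the latter of 136 in the 10x set.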

How the results depend on the processing

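Pooled class levels moved beyond counting error mainly upward. With the highest-scoring 6% of nuclei by Scrublet left out, Notch2, Notch3 and Heyl in muscle stem cell-like nuclei went from 328, 799 and 130 to 381, 957 and 155 CPM, Notch3 and Jag1 in mural-like nuclei from 1086 and 232 to 1271 and 271 CPM, and Notch1, Jag1 and Dll4 in endothelial-like nuclei from 99.4, 120 and 70.2 to 118, 147 and 82.8 CPM. With nuclei thinned to 500 UMIs the values were 389 (Notch2), 978 (Notch3) and 153 CPM (Heyl) in muscle stem cell-like nuclei, 1154 CPM for Notch3 in mural-like nuclei, and 120 (Notch1), 69.6 (Notch4), 83.6 (Jag2) and 82.2 CPM (Dll4) in endothelial-like nuclei. In myonuclei thinning gave 50.5 CPM for Notch2 and 26.9 CPM for Jag2, and Notch2 was at 49.5 CPM with the Notch genes kept in the clustering and 49.2 CPM at a resolution of 2.0.

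Members past 2-fold in Old against Young numbered 1 in muscle stem cell-like nuclei without those 6% of nuclei (2 otherwise), 1 in mural-like nuclei with TMM scaling and 1 without those nuclei (0 otherwise), and with TMM scaling 0 in endothelial-like nuclei (1 otherwise) and 1 in myonuclei (3 otherwise). In Running against Sedentary endothelial-like nuclei there were 2 without those nuclei (1 otherwise). The shares of all genes past 2-fold given above are those of the main values. No such share was set beside the counts under these settings, here or above.

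Over 8 libraries, fits of only the 4 libraries compared called 4 genes (all nuclei) and 2 (myonuclei) for Old against Young and 81 and 1 for Running against Sedentary, and DESeq2 called 5 for Old against Young in myonuclei. In fibro-adipogenic nuclei, where edgeR called 22 and 4, DESeq2 called 1 and 0, and edgeR without Old replicate 2 called 32 and 18. Leaving out 1 library at a time gave 0 to 418 genes for Running against Sedentary in all nuclei and 0 to 5 in myonuclei, the highest without Sedentary replicate 2, and 0 for Old against Young. A group left with 1 library was assumed to vary like the others. The cause of these shifts was not tested. Of 317 member values under the alternatives, 44 had the opposite sign and none was called. Jag1 in Old against Young myonuclei ranged from 1.40 to 1.92 in log2 fold change, with adjusted p from 0.332 to 1.

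No paired analysis was possible because replicate numbers follow deposition order and replicates 1 and 2 are different library sets. The planned 8-library test of endothelial-like nuclei and its alternatives were not run, since the second library set held no such class at the resolution used. Depth limits Hey1, Dll1, Dll4 and Notch4, and 1 library per group limits every class ratio.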

Other observations

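Outside the stem, vascular and fibre classes, Notch2 and Rbpj were both high in macrophage-like nuclei. Notch2 stood there at 412 (Old), 460 (Young), 433 (Running) and 409 CPM (Sedentary), and Rbpj ranged from 4424 to 7458 CPM. Lymphatic endothelial-like nuclei led the class levels of 5 pathway genes, among them Dtx1 (149 CPM) and Maml2 (1430 CPM). Dll4 in those nuclei had 3 UMIs in Old and 19 in Young, a ratio of 0.298 (exact 95% interval 0.0565 to 1.012).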
